A study of Homo sapiens with 8 samples.

Results

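The 9 genes described here are a chosen set from the MHC class I antigen presentation pathway: HLA-B, HLA-C, HLA-E, B2M, TAP1, TAP2, PSMB8, PSMB9 and NLRC5. They were found by their names in the scanner files, and every non-control probe carrying such a name was used. This gave 14 probes out of 50599 on the array. Of the 34423 gene or locus names on the array, 20593 had a probe bright enough to test, and 8 of the 9 genes were among them. PSMB8 was the exception.

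Nearly all cells cut some of their proteins into short peptides and show them on the surface in the groove of an MHC class I molecule, where cytotoxic T cells can inspect them. Proteasomes make the peptides, the TAP transporter carries them into the endoplasmic reticulum, and a loading complex places them on a class I heavy chain paired with beta-2-microglobulin. The genes are induced together by interferon, through the IRF factors, and by NLRC5, a coactivator that assembles with RFX, CREB and NF-Y proteins at class I promoters.

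RNA came from HCT-116, a cell line of human colorectal carcinoma, and was hybridised to 8 one-colour arrays, 2 for each of 4 groups. WT were untreated parental cells in exponential growth, and WT+NU6102 were the same parental cells exposed for 24 h to 20 µM NU6102, a small-molecule inhibitor of CDK1 and CDK2. CDK2 KO were untreated cells lacking CDK2, and R50 were NU6102-resistant cells maintained in 50 µM NU6102. The study compared them to ask how gene expression in resistant cells relates to that of cells acutely inhibited or without CDK2. The labels do not say that the 2 arrays of a group came from separate cultures, so p-values measure the spread between these arrays, which may be technical.

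Levels are given as log2 of the background-subtracted signal less the 75th percentile of the same array, so a value of 0 lies at that percentile. A difference of 1 on this scale is a 2-fold change. A gene was called changed where limma gave a p under 0.05 after Benjamini-Hochberg adjustment over all tested probes, and a gene with several probes is represented by its brightest. Spots well above background numbered 32376 to 36206 per array, and 0 were saturated. WT and WT+NU6102 were hybridised on 1 slide, CDK2 KO and R50 on another, so WT+NU6102 was compared with WT, and R50 with CDK2 KO, within a slide. In all other comparisons the slide cannot be told apart from the group. The CDK2 probe lay 0.78 lower in CDK2 KO than in WT (adjusted p = 0.000268) but exceeded background clearly on all 8 arrays. It read -0.76 and -0.76 in WT, -1.56 and -1.51 in CDK2 KO, -1.10 and -1.09 in R50, and -0.44 and -0.42 in WT+NU6102. The place of this probe relative to the deleted part was not given in the sources used here. All 7 epithelial markers exceeded background clearly on every array. Relative to WT, 4 were higher and 3 lower in WT+NU6102, against 24.6% and 21.4% of all tested genes. In CDK2 KO 4 were higher, against 17.1% of all genes. In R50 5 were higher, against 10.6%, with a median of 0.68 where that of all genes was -0.03. Of 9 leukocyte markers 6 were tested, as were 1 of 6 fibroblast and 2 of 3 endothelial markers. CD68 changed by -0.60, -1.39 and -1.58 and COL1A1 by -0.75, 1.22 and 0.66 in WT+NU6102, CDK2 KO and R50. The part of these shifts in the results was not tested.

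The sequences set 2 limits on what these probes can tell apart. A probe named HLA-B and the brightest probe named HLA-C share 41 bases, all 41 identical, and the file places that HLA-C probe at the HLA-B position on chromosome 6. The representing HLA-B probe overlaps the same HLA-C probe by 51 bases, of which 50 are identical. A common stretch of 30 bases is printed from each of the 3 probes, 5′ to 3′, because it shows how little separates them, and the capital marks the only base of the stretch that differs.
HLA-B, representing probe: taagtcaattcctggaaTttgagagagcaa
HLA-B, probe overlapping HLA-C: taagtcaattcctggaaGttgagagagcaa
HLA-C, representing probe: taagtcaattcctggaaGttgagagagcaa
Values of these 3 probes are therefore given as HLA-B or HLA-C only by the file's naming. The annotation also assigns both HLA-B probes printed here to transcripts that it assigns to the second HLA-C probe. The second HLA-C probe lies elsewhere, at chr6:31236617-31236676 (hg19), and its longest identical run with any other probe of a class I gene compared was 10 bases. The second HLA-B probe shares at most 8 bases in a row with the others and has no position in the files. Probes were compared only with each other and not with whole transcripts, so a short shared run does not show which class I transcripts a probe reads.

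Promoter sequence was held for 7 of the genes, as RefSeq windows on GRCh38.p14 from 250 bases before to 50 after a start, 9 windows in all since TAP1 and PSMB8 have more than 1. They were searched on both strands for an interferon-stimulated response element, spelled as GAAA, any 2 bases and GAAA, and for a kB-like site, spelled as GGG, any 2 bases, TT, any 1 base and CC. The first was found in 4 of the 9 windows, 1 each of TAP1, TAP2, B2M and PSMB8, and in 3.57% of 35116 windows of the same length over all genes. The second was found in 3 windows, of TAP1, B2M and HLA-B, and in 5.68% of all windows. TAP1, TAP2, B2M and HLA-B were each lower than WT in both WT+NU6102 and CDK2 KO, and so were PSMB9 and HLA-C. Stretches of the first 4 genes are printed because their windows held a match lying wholly before the start. Each stretch ends before the start and has the matches in capitals.
TAP1, chr6:32853727-32853878, minus strand: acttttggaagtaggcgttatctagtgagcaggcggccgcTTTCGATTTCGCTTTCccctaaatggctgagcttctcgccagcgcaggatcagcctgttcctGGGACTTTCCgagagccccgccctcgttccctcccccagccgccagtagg
B2M, chr15:44711333-44711441, plus strand: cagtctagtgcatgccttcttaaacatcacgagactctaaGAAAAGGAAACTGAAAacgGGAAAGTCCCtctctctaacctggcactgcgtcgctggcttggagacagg
TAP2, chr6:32838748-32838837, minus strand: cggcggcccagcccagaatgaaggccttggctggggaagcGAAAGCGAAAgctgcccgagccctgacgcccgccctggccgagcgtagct
HLA-B, chr6:31357307-31357396, minus strand: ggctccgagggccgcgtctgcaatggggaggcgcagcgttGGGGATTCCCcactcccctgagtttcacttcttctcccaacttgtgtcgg
In TAP1 and in B2M the first run of capitals holds 2 overlapping matches to the response element and the second run is the kB-like site. TAP1 and PSMB9 lie head to head on opposite strands, with 487 bases between their starts, and their windows overlap by 13 bases. The PSMB9 and HLA-C windows held neither motif. Windows were also searched for CCAAT, present in 5 of the 9 and in 34.6% of all windows, and for TGACG, present in 6 and in 24.6%. A match is a description of the letters only.

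All 8 tested genes of the pathway were lower in WT+NU6102 than in WT, against 21.4% of all tested genes called lower and 24.6% called higher. Their median log2 change was -0.39, where that of all genes was 0.04. In CDK2 KO, 7 of the 8 were lower than in WT, against 14.8% of all genes, with a median change of -0.59 where that of all genes was 0.03. In R50, 1 of the 8, PSMB9, was lower than in WT, against 13.2% of all genes, with a median of -0.10 where that of all genes was -0.03. Relative to CDK2 KO, 7 were higher in R50, against 15.3% of all genes, with a median of 0.52 where that of all genes was -0.06. The comparisons with WT share the WT arrays. Here and in later counts of the 8, HLA-B and HLA-C are counted by representing probes that overlap, so they may not be separate readings. By its representing probe PSMB9 was the only gene changed at least 2-fold in these comparisons: lower in WT+NU6102 (5.35% of all genes) and in CDK2 KO (2.27%), and higher in R50 than in CDK2 KO (2.86%). Slide cannot be told apart from group in CDK2 KO against WT and in R50 against WT, while the other 2 comparisons lay within 1 slide each. With only the 4 arrays of its slide in the fit, WT+NU6102 against WT kept 5 of its 8 calls, and those of B2M, HLA-E and NLRC5 were lost (adjusted p = 0.0695, 0.0652 and 0.0564). R50 against CDK2 KO kept 6 of 7 within its slide, losing HLA-C by its representing probe.

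**Figure D1:**
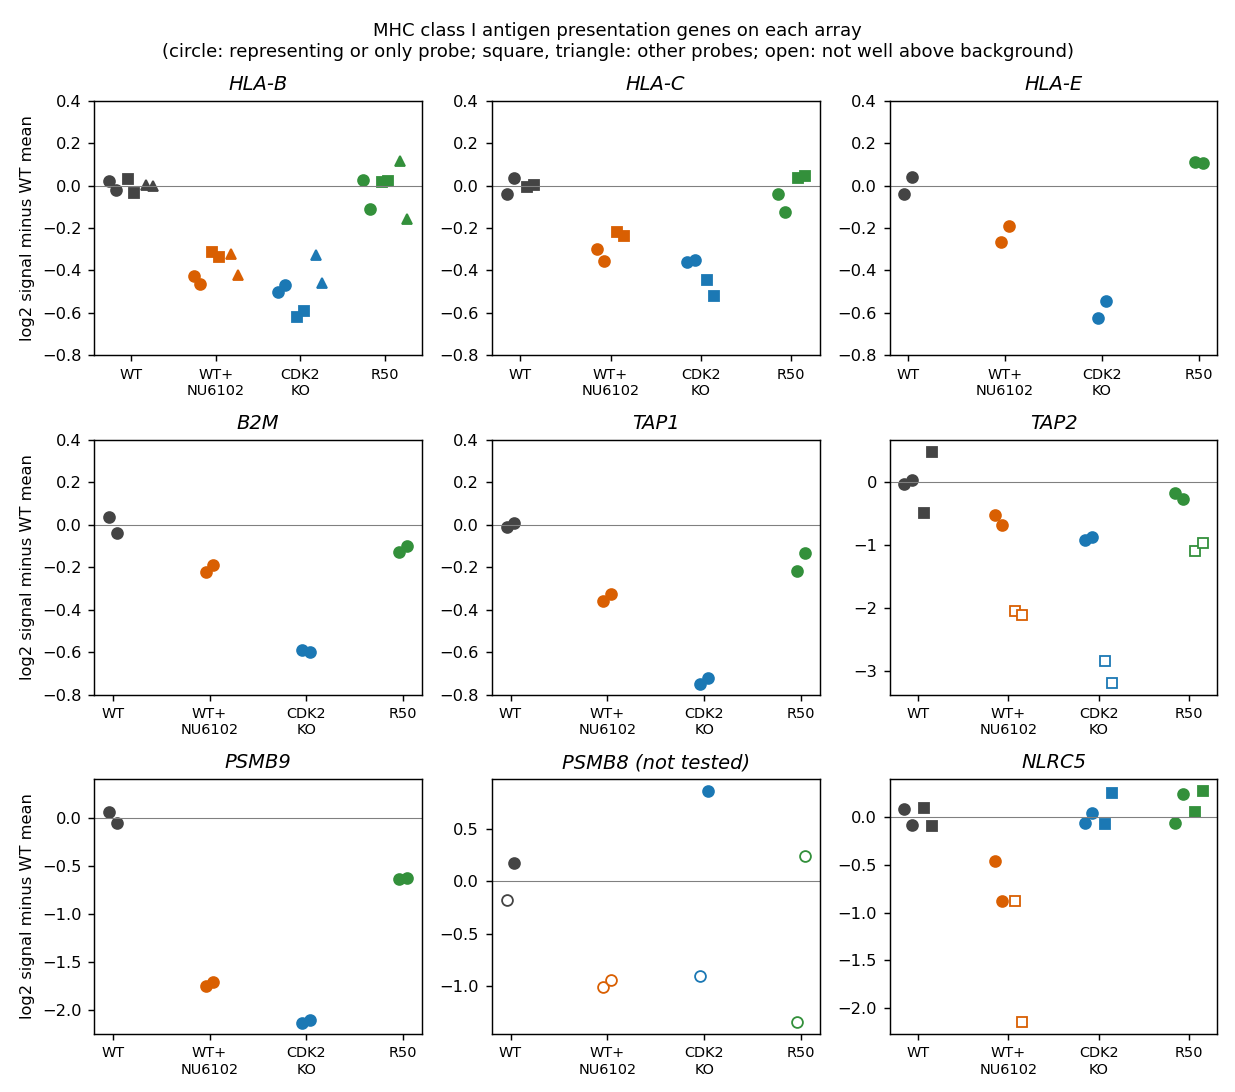
Normalized log2 signal of every probe of the 9 genes on each of the 8 arrays, less the mean of the 2 WT arrays for the same probe, with 1 panel per gene. Circles are the representing or only probe, squares and triangles the other probes, and open symbols arrays on which the probe was not well above background. For all genes except PSMB8 and NLRC5 the CDK2 KO arrays lie below the WT and R50 arrays.

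PSMB9 changed by far more than the other genes by their representing probes. It encodes an interferon-inducible catalytic subunit that replaces a standard one to form the immunoproteasome, which favours peptides suited to class I molecules. Its probe lies at chr6:32823918-32823977 (hg19). The level was 1.95 and 1.84 on the WT arrays, 0.14 and 0.18 on WT+NU6102, -0.25 and -0.22 on CDK2 KO, and 1.25 and 1.26 on R50. No group overlapped another. Relative to WT the level was 3.33-fold lower in WT+NU6102 (log2 -1.74, SE 0.06, adjusted p = 8.54e-05) and 4.37-fold lower in CDK2 KO (log2 -2.13, SE 0.06, adjusted p = 2.9e-05). R50 lay between them and WT, 0.63 below WT (SE 0.06, adjusted p = 0.00198), 2.14-fold above WT+NU6102 (adjusted p = 6.81e-05, a 2-fold call shared by 7.77% of all genes) and 1.49 above CDK2 KO (adjusted p = 7.15e-05). CDK2 KO was also 0.39 lower than WT+NU6102 (adjusted p = 0.00207), so the order WT, R50, WT+NU6102, CDK2 KO held at each step.

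PSMB8, the other immunoproteasome subunit on the list, could not be tested. Its only probe, at chr6:32810023-32810490 (hg19), was well above background on 1 WT array and 1 CDK2 KO array. Its processed signal was 24.4 and 30.6 on WT, 14.3 and 14.4 on WT+NU6102, 13.5 and 45.4 on CDK2 KO, and 10.3 and 31.6 on R50. The 2 arrays of CDK2 KO and those of R50 differed by more than the groups did, and no level could be read from it.

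TAP1 and TAP2 encode the subunits of the peptide transporter, and TAP1 shares its promoter region with PSMB9. TAP1 (probe at chr6:32813210-32813269, hg19) was at 3.81 and 3.84 on the WT arrays, 3.47 and 3.50 on WT+NU6102, 3.08 and 3.10 on CDK2 KO and 3.61 and 3.69 on R50. Again no group overlapped another. TAP1 fell by 0.34 in WT+NU6102 (SE 0.05, adjusted p = 0.00321) and by 0.74 in CDK2 KO (SE 0.05, adjusted p = 0.000456), which is 1.27-fold and 1.67-fold. In R50 it stood 0.56 above CDK2 KO (adjusted p = 0.000946) and 0.17 above WT+NU6102 (adjusted p = 0.0358), and its difference of -0.18 from WT did not pass (adjusted p = 0.0585), though it did under 3 alternatives (adjusted p = 0.0101 to 0.0482). The call above WT+NU6102 was lost without any 1 of 7 of the arrays, all but R50 replicate 1 (adjusted p = 0.0604 or more).

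The PSMB9 value less the TAP1 value on the same array was -1.87 and -2.0 in WT, -3.33 and -3.32 in WT+NU6102, -3.33 and -3.32 in CDK2 KO, and -2.36 and -2.43 in R50. Only its change between groups can be read, since the probes differ in efficiency. The pair of genes with facing starts therefore changed unequally, PSMB9 more than TAP1, and by a similar margin in WT+NU6102 and CDK2 KO. This difference was not tested.

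TAP2 (representing probe at chr6:32793222-32793281, hg19) was at 2.67 and 2.72 on the WT arrays, 2.17 and 2.02 on WT+NU6102, 1.78 and 1.82 on CDK2 KO and 2.52 and 2.43 on R50. The order of the groups was the same as for TAP1, without overlap. TAP2 fell by 0.60 in WT+NU6102 (SE 0.07, adjusted p = 0.00141) and by 0.89 in CDK2 KO (SE 0.07, adjusted p = 0.000697), and CDK2 KO lay 0.29 below WT+NU6102 (adjusted p = 0.0162), a call lost without WT+NU6102 replicate 1 or either CDK2 KO array. R50 was 0.67 above CDK2 KO (adjusted p = 0.00156), 0.38 above WT+NU6102 (adjusted p = 0.00596) and 0.22 below WT, the last not past the test (adjusted p = 0.0742) but past it under 3 alternatives (adjusted p = 0.0159 to 0.0477).

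A second TAP2 probe, at chr6:32789804-32789863 (hg19), was well above background only on the 2 WT arrays, which read -4.38 and -3.41. The bounds that follow set the mean of these 2 arrays against the lowest signal well above background, and would be smaller from WT replicate 1 alone. The probe was at least 1.91-fold lower in WT+NU6102 (adjusted p = 0.00358) and at least 2.33-fold lower in CDK2 KO (adjusted p = 0.00177). In R50 the probe was likewise not well above background, at least 1.86-fold below the WT mean. The fitted difference in R50 missed the threshold (adjusted p = 0.0684). With the mean of both probes in place of the brighter, TAP2 changed by -1.34 in WT+NU6102, -1.95 in CDK2 KO and -0.63 in R50 relative to WT, values that include signals at background.

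B2M encodes beta-2-microglobulin, the light chain that every class I molecule needs to reach the cell surface. Its probe, at chr15:45007773-45007832 (hg19), was printed 10 times on each array, with a spread of 0.05 to 0.07 (SD) between spots. The mean of the spots was 4.92 and 4.84 in WT, 4.66 and 4.69 in WT+NU6102, 4.29 and 4.28 in CDK2 KO, and 4.75 and 4.78 in R50. CDK2 KO stood below every other array. B2M fell by 0.59 in CDK2 KO (SE 0.05, adjusted p = 0.000831), 1.51-fold, and by 0.20 in WT+NU6102 (SE 0.05, adjusted p = 0.0194), the latter no longer called without WT replicate 1 or either WT+NU6102 array (adjusted p = 0.0613 or more). R50 was 0.48 above CDK2 KO (adjusted p = 0.00144), but it did not differ beyond the spread from WT (-0.11, adjusted p = 0.163) or from WT+NU6102 (0.09, adjusted p = 0.173). With quantile normalization the difference of B2M from WT+NU6102 was 0.29 and passed (adjusted p = 0.00701).

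HLA-B and HLA-C are classical class I heavy chains, which present peptides to T cells. The representing HLA-B probe (chr6:31321653-31321712, hg19) read 5.92 and 5.87 in WT, 5.47 and 5.43 in WT+NU6102, 5.39 and 5.42 in CDK2 KO, and 5.92 and 5.79 in R50. WT and R50 overlapped, and both lay above WT+NU6102 and CDK2 KO. This probe, annotated to HLA-C transcripts as well, fell by 0.44 in WT+NU6102 (SE 0.06, adjusted p = 0.00259) and by 0.48 in CDK2 KO (SE 0.06, adjusted p = 0.00338). R50 was 0.45 above CDK2 KO (adjusted p = 0.00386) and differed from WT by -0.04 (SE 0.06, adjusted p = 0.691).

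The second HLA-B probe, which shares no long run with the others, read 2.55 and 2.49 in WT, 2.21 and 2.18 in WT+NU6102, 1.90 and 1.93 in CDK2 KO, and 2.53 and 2.54 in R50. It gave the same calls relative to WT, with a change of -0.33 in WT+NU6102 (adjusted p = 0.00314) and of -0.60 in CDK2 KO (adjusted p = 0.000699). The probes disagreed on CDK2 KO against WT+NU6102. This second probe put CDK2 KO lower by 0.28 (adjusted p = 0.00436), and the representing probe gave a difference of -0.04 (adjusted p = 0.6).

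HLA-C showed the same split between probes. The probe placed at the HLA-C position read 6.92 and 6.93 in WT, 6.70 and 6.69 in WT+NU6102, 6.48 and 6.40 in CDK2 KO, and 6.96 and 6.97 in R50. It fell by 0.23 in WT+NU6102 (SE 0.05, adjusted p = 0.0116) and by 0.48 in CDK2 KO (SE 0.05, adjusted p = 0.00147), with CDK2 KO 0.26 below WT+NU6102 (adjusted p = 0.00614). The brighter HLA-C probe, which overlaps the HLA-B probes, changed by -0.33 in WT+NU6102 (adjusted p = 0.00597) and by -0.36 in CDK2 KO (adjusted p = 0.00737), and put these groups only 0.03 apart (adjusted p = 0.703). In R50 the first of these probes was 0.52 above CDK2 KO (adjusted p = 0.000975) and the brighter 0.28 above it (adjusted p = 0.0153). The call of the brighter probe in R50 against CDK2 KO was lost without R50 replicate 1 or either CDK2 KO array. Neither probe differed from WT in R50 beyond the spread.

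HLA-E encodes a nonclassical heavy chain that presents leader peptides of other class I chains to receptors of natural killer cells. Its probe (chr6:30460729-30460788, hg19) read 4.97 and 5.05 in WT, 4.75 and 4.82 in WT+NU6102, 4.39 and 4.47 in CDK2 KO, and 5.12 and 5.12 in R50. Its R50 arrays were the highest of all 8. HLA-E fell by 0.23 in WT+NU6102 (SE 0.06, adjusted p = 0.0231) and by 0.58 in CDK2 KO (SE 0.06, adjusted p = 0.00153). The change in WT+NU6102 was not called without WT replicate 2 or WT+NU6102 replicate 1. R50 was 1.62-fold above CDK2 KO (log2 0.69, adjusted p = 0.000768) and 0.34 above WT+NU6102 (adjusted p = 0.0045), and its difference of 0.11 from WT did not pass (adjusted p = 0.238), except with quantile normalization, where HLA-E was 0.19 above WT (adjusted p = 0.0417).

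NLRC5, the transcriptional coactivator of the class I genes, followed another course. Its brighter probe (chr16:57077428-57077487, hg19) read -2.15 and -2.31 in WT, -2.69 and -3.11 in WT+NU6102, -2.29 and -2.18 in CDK2 KO, and -2.29 and -1.99 in R50. WT, CDK2 KO and R50 overlapped and WT+NU6102 lay below them all. NLRC5 fell by 0.67 in WT+NU6102 (SE 0.17, adjusted p = 0.0251), while in CDK2 KO its difference from WT was -0.01 (SE 0.17, adjusted p = 0.979) and in R50 0.09 (SE 0.17, adjusted p = 0.756). CDK2 KO was 0.66 above WT+NU6102 (adjusted p = 0.022), the opposite order to the PSMB9, TAP1, TAP2, B2M and HLA-E probes. The fall in WT+NU6102 was not called without WT+NU6102 replicate 2 or either WT array, nor was the difference from CDK2 KO without WT+NU6102 replicate 2 or either CDK2 KO array. The second NLRC5 probe, at chr16:57116822-57116881 (hg19), was not well above background on either WT+NU6102 array. It was at least 1.55-fold lower there than in WT (adjusted p = 0.0278) and at least 1.66-fold lower than in CDK2 KO (adjusted p = 0.0188). With the mean of both probes NLRC5 changed by -1.09 in WT+NU6102 relative to WT (adjusted p = 0.0245), a value that includes signals at background.

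**Figure D2:**
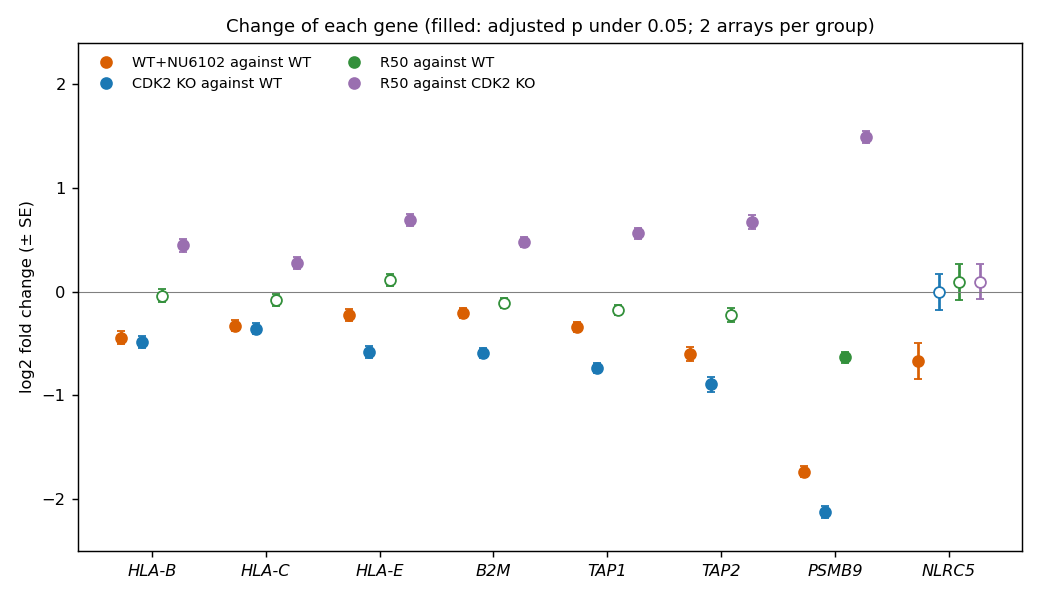
Log2 fold change with its standard error for the 8 tested genes in 4 comparisons, 2 arrays per group; filled points have an adjusted p under 0.05 in limma. PSMB9 has the longest changes, and the R50 against WT points are open for the 7 other genes.

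Among the 4 groups as a whole, 5 of the 8 genes differed at an adjusted p under 0.001 in limma's F-test, namely PSMB9, TAP1, TAP2, HLA-E and B2M, against 22.7% of all tested genes. Only 1 passed without any 1 array, with a replicate block, with no filter on dim probes or with the methods' ANOVA. Both WT+NU6102 arrays lay below both WT arrays for 8 of 8 genes, against 34.2% of all genes, and both CDK2 KO arrays for 7 of 8, against 31.7%. Both R50 arrays lay below both WT arrays for 4 of 8, against 36.5%. R50 relative to WT+NU6102 was higher at the test's threshold for 7 of the 8, against 23.3% of all genes, with a median of 0.36 where that of all genes was -0.06. Between CDK2 KO and WT+NU6102, 5 of the 8 were lower in CDK2 KO, against 27.7%, and NLRC5 was higher, against 26.2%.

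By the root mean square of the difference between centred log2 profiles over the 8 arrays, B2M and TAP1 were the closest pair of the tested genes (0.07), followed by HLA-B and HLA-C (0.08), whose probes overlap. The widest pair was NLRC5 and PSMB9 (0.78). By representing probes, PSMB9 was the only gene whose group means spanned at least 1 on the log2 scale, 2.13. Among 17770 other genes well above background on all arrays, the closest profiles to it were those of DTX3L, a ubiquitin ligase (0.15), LAMP3, a lysosomal membrane protein (0.15), and MRVI1 (0.20). DTX3L changed by -1.81 in WT+NU6102, -1.92 in CDK2 KO and -0.78 in R50, each relative to WT.

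The shares of all genes to set beside the counts of the following lists are those given above for lower calls relative to WT, 21.4% in WT+NU6102, 14.8% in CDK2 KO and 13.2% in R50, and for higher calls 24.6%, 17.1% and 10.6%. The lists were chosen with earlier results of these data known. Genes named from them follow a rule of extremes, the highest and lowest called change in each comparison with WT, apart from some named after their values were seen. Of 7 peptide loading genes, 3 were lower in WT+NU6102, 3 in CDK2 KO and 0 in R50. The 3 lower in WT+NU6102 were tapasin (TAPBP, -0.76, adjusted p = 0.000221), which bridges TAP and the heavy chain, and the peptide-trimming enzymes ERAP1 (-0.93) and ERAP2 (-0.94, adjusted p = 0.0244). In CDK2 KO, ERAP1 had the lowest value, -0.63 (adjusted p = 0.00497), and TAPBP changed by -0.32 (adjusted p = 0.00457). TAPBP was the 1 loading gene higher in R50, by 0.18 (adjusted p = 0.0396). The medians of this list were 0.02, -0.32 and -0.01 in WT+NU6102, CDK2 KO and R50.

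Of the 8 further proteasome genes, 5 were higher and 2 lower in WT+NU6102, with a median of 0.28. The 2 lower were the interferon-inducible activator subunits PSME1 (-0.99, adjusted p = 0.00033) and PSME2 (-0.67), and the highest was the constitutive subunit PSMB7 (0.51, adjusted p = 0.000937). PSMB10, the remaining immunoproteasome catalytic subunit, changed by 0.24 in WT+NU6102, -0.26 in CDK2 KO and -0.28 in R50 (adjusted p = 0.0257, 0.0268 and 0.0289), so it rose in WT+NU6102, where PSMB9 fell, and fell with PSMB9 in CDK2 KO and R50. In CDK2 KO, 4 were lower and 1 higher, from PSME1 (-0.87, adjusted p = 0.000731) to PSME3 (0.27, adjusted p = 0.0185). In R50, 5 were lower and 0 higher.

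Of 6 other class I genes tested, 3 were higher and 3 lower in WT+NU6102, with a median of 0.16. MICA, a stress-induced ligand of the NKG2D receptor that pairs with no light chain and carries no peptide, rose by 1.07 (adjusted p = 0.000131), and HFE, the class I-like regulator of iron uptake, fell by 1.45 (adjusted p = 0.00029). HFE was also the lowest in CDK2 KO (-0.56, adjusted p = 0.00937) and in R50 (-0.45, adjusted p = 0.0257). MICB was the highest in CDK2 KO (0.21, adjusted p = 0.0389) and MICA in R50 (0.17, adjusted p = 0.0487). Among 131 other tested genes on chromosome 6 between 29600000 and 33100000 (hg19), the MHC region around these genes, 39 were lower and 28 higher in WT+NU6102, with a median of -0.03. In CDK2 KO 24 were lower and 16 higher, with a median of 0.02.

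The regulators upstream of the pathway included a change larger than that of PSMB9. Of 14 tested, 5 were higher and 4 lower in WT+NU6102, 2 higher and 7 lower in CDK2 KO, and 1 higher and 3 lower in R50. IRF9, the DNA-binding part of the complex that answers type I interferon, changed by -3.81 in WT+NU6102 (adjusted p = 7.37e-05) and by -2.56 in CDK2 KO (adjusted p = 5.69e-05), and its difference in R50 was -0.23 (adjusted p = 0.118). IRF1 changed by -0.87, -0.95 and -0.27 in WT+NU6102, CDK2 KO and R50 (adjusted p = 0.000191, 0.000193 and 0.0154). IRF2 changed by -0.60 in WT+NU6102 (adjusted p = 0.000765) and by -0.74 in CDK2 KO (adjusted p = 0.00069). In R50 the difference of IRF2 was 0.08 (adjusted p = 0.382). The lowest called change in R50 was that of SOCS1, a feedback inhibitor of interferon signalling (-0.41, adjusted p = 0.0414). The highest were IFNGR2 in WT+NU6102 (0.42, adjusted p = 0.00159), SOCS1 in CDK2 KO (0.62, adjusted p = 0.00879) and IFNGR1 in R50 (0.35, adjusted p = 0.0122).

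The 8 partners of NLRC5 at class I promoters gave 1 higher and 5 lower in WT+NU6102, 2 and 2 in CDK2 KO, and 1 and 0 in R50. NFYA was the highest in all 3 comparisons, by 0.64, 1.19 and 0.36 (adjusted p = 0.0016, 0.000386 and 0.0271). The lowest were NFYB in WT+NU6102 (-0.71, adjusted p = 0.00138) and NFYC in CDK2 KO (-0.50, adjusted p = 0.0027). No partner was lower in R50.

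MHC class II genes, which present peptides from outside the cell, are known for a control of their own through CIITA, which was not bright enough to test. Of 10 tested, 7 were lower in WT+NU6102 and 0 higher, with a median of -0.56. In CDK2 KO 4 were lower and 1 higher, and in R50 5 were higher, against 10.6% of all genes, and 0 lower, with a median of 0.28. The lowest in WT+NU6102 was HLA-DOA (-1.75, adjusted p = 0.000254) and the least lowered of the 7 was HLA-DRB1 (-0.36, adjusted p = 0.00262). HLA-DPB1 was the lowest called in CDK2 KO (-1.44, adjusted p = 0.000243) and the highest in R50 (0.79, adjusted p = 0.00303). HLA-DQB1 was the highest in CDK2 KO (0.54, adjusted p = 0.00163), and HLA-DRB1 was the smallest called change in R50 (0.24, adjusted p = 0.024). Levels of some were low. HLA-DOA read -0.69 in WT and -2.45 in WT+NU6102, and HLA-DPB1 -1.30 in WT and -2.74 in CDK2 KO. The leukocyte marker PTPRC read -2.56 in WT and -2.41 in WT+NU6102. HLA-DRB1 was brighter, at 0.40 in WT and 0.03 in WT+NU6102.

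**Figure D3:**
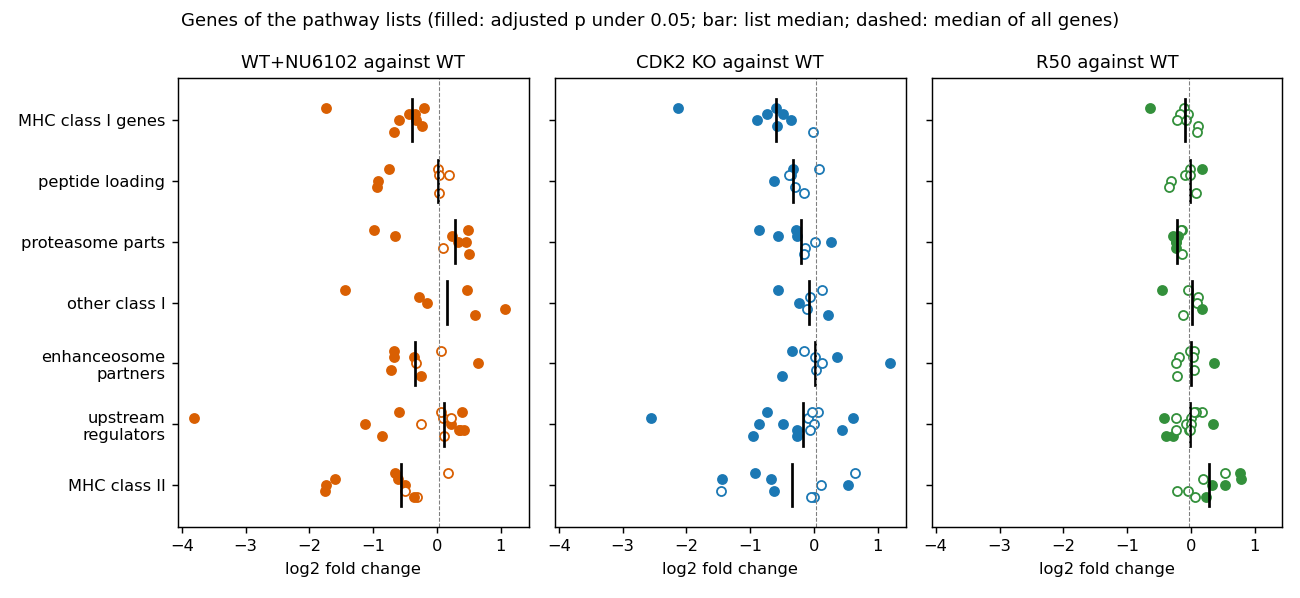
Log2 fold change relative to WT of each tested gene of the class I genes and of the 6 pathway lists, for WT+NU6102, CDK2 KO and R50, each comparison using the same 2 WT arrays. Filled points have an adjusted p under 0.05, the black bar is the median of the list, and the dashed line the median of all tested genes; the class I genes lie left of that line in WT+NU6102 (median -0.39), and the class II genes lie mostly right of it in R50 (median 0.28).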

How the data were processed

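RNA of HCT-116 cells in 4 groups of 2 was hybridised to one-colour arrays of 60-base probes. The authors deposited the intensity of each spot as read by Agilent Feature Extraction 11.5.1.1 and corrected for background, but not yet scaled between arrays. Processed log2 values, which the authors deposited too, were an alternative, and 99.8% of their 28702 shared probes lay within 0.05 of the scanner log2 signal less a constant per array and centred per probe. Positions come from the WT and WT+NU6102 files, annotated on hg19.

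Using R 4.3.3 and its package data.table, version 1.17.8, control and outlier spots were dropped, the 75th percentile of log2 signal was subtracted per array, and spots of a probe were averaged. Probes had to be well above background on both arrays of some group, and the 28677 that passed were fitted together over 4 groups with limma 3.58.1, with two-sided tests and empirical Bayes moderation. The fit was tested on simulated data. Groups came from the sample labels. The number of arrays limits the precision. Bounds written as "at least" set the brighter group's mean against, on each dim array, the higher of the probe's own value and the lowest signal among probes well above background, averaged on the log2 scale. Motif searches and figures used Python 3.11.15 with matplotlib 3.10.9 and numpy 2.4.6.

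The members, pathway lists and named genes (all members, the highest and lowest called gene of each list in each comparison with WT, and the 3 genes with the profile closest to a member that spans at least 1 on the log2 scale) were chosen with earlier results of these data known. Some further genes of the lists (PSME2, PSMB10, IRF1, IRF2, PTPRC, and ERAP1 in WT+NU6102) were named after their values were seen. Some genes of the pathway are not reported here. Alternatives were quantile normalization, normexp background correction, other filters, a signal-dependent prior, the authors' log2 values, a replicate block, the methods' t-test and ANOVA, the mean of a gene's probes, each slide alone, and leaving out each array.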

Additional observations from a re-analysis of the deposited data

How the results depend on the processing

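The direction of every called change in the 8 genes held under every alternative run, and 62 of 627 recomputed calls were lost. The replicate block left each count relative to WT as it was (8, 7 and 1 genes in WT+NU6102, CDK2 KO and R50), but 1 gene in place of 5 passed the F-test. Replicate numbers did not pair the arrays (correlations of deviations -0.03 to 0.05). The F-test also gave 1 gene with no filter, with the methods' ANOVA, and without any 1 array (lowest 1, highest 1). The methods' t-test, called 3 genes in WT+NU6102 against WT, 3 in CDK2 KO against WT, 3 between CDK2 KO and WT+NU6102, 3 in R50 against CDK2 KO, 2 in R50 against WT+NU6102 and 0 in R50 against WT. The count in R50 against WT was 2 with quantile normalization, 3 with normexp, 2 with probes bright on all 8 arrays, 3 with a signal-dependent prior and 2 with the mean of a gene's probes. TAP1 was called lower there in 3 of these and TAP2 in 3, and HLA-E higher with quantile normalization (adjusted p = 0.0417). The count in WT+NU6102 against WT was 5 with no filter and 5 within its slide. R50 against CDK2 KO gave 6 within its slide. Leaving out each array gave 6 to 8 genes in WT+NU6102 and 7 to 7 in CDK2 KO against WT, 1 to 1 in R50 against WT, 6 to 7 in R50 against CDK2 KO, 5 to 6 in R50 against WT+NU6102 and 4 to 6 between CDK2 KO and WT+NU6102.

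All changes of sign were in values not called. With quantile normalization, HLA-B was 0.10 between CDK2 KO and WT+NU6102 and 0.0148 in R50 against WT, and the latter ran from -0.108 to 0.0284 as each array was left out. With normexp, HLA-C was 0.0381 between CDK2 KO and WT+NU6102 and NLRC5 was 0.0306 in CDK2 KO against WT. NLRC5 in CDK2 KO against WT was also 0.0442 with the mean of its probes, and ran from -0.0929 to 0.0772 as each array was left out. In the same way, NLRC5 ran from -0.0535 to 0.249 in R50 against CDK2 KO and from -0.0614 to 0.241 in R50 against WT. The cause of these shifts was not tested. A fixed slide term could not be fitted for comparisons across slides. PSMB8 and the second probes of TAP2 and NLRC5 lay at or near background, which limits them to bounds or to no level.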
